A study of Homo sapiens with 8 samples.

Results

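Broad H3K4me3 islands were examined in PC9 cells, an established human lung adenocarcinoma line. They were the islands of at least 8 kb in the H3K4me3 list of DMSO replicate 1 that overlapped an island of the DMSO replicate 2 list by at least 1 bp. There were 1017 of them among 1022 islands of that length, out of 23875 islands in all (4.26%). They covered 10.7 Mb, or 12.6% of the length covered in that list. The members were selected on their measured length in DMSO replicate 1 and on that overlap, so their length in that list is a description, and the comparison between treatments rests on replicate 2.

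Cells received the vehicle DMSO or 1 μM GSK126, an inhibitor of the H3K27 methyltransferase EZH2, for 5 days. Chromatin was precipitated with an antibody to H3K4me3 or to H3K27me3 together with spiked D. melanogaster chromatin from OSS ovarian somatic sheath cells, which an antibody to the fly histone H2Av recovers. There were 2 libraries for each mark and treatment, 8 libraries and 14 island lists in all, and PC9 is a single cell line. With GSK126, each H3K4me3 library had a list with tags removed to an equal number within its replicate and a list with tags removed by the spike-in factor, while each DMSO library of that mark had 1 list that served both. Nothing in the labels says whether the replicates were separate cultures, and 2 pairs cannot give an exact sign-flip p below 0.5, so no p-value is given.

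H3K4me3 is laid down at the starts of transcribed genes by the SETD1 and KMT2 (MLL) methyltransferases, which are recruited in part through CpG-rich DNA that is free of DNA methylation. At most genes it forms a narrow block around the start. A small set of genes carries blocks that run far into the gene body, and such broad blocks are known for marking genes that define the identity of a cell type, together with very highly transcribed genes. H3K27me3, made by the EZH2-containing complex PRC2, marks repressed developmental genes and usually does not share long stretches with H3K4me3.

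The tag density differed between the replicates. Fitted from the island scores, it was 1.77 tags per 200-bp window in DMSO replicate 1 and 0.302 in DMSO replicate 2, a 5.86-fold difference. The list of GSK126 at equal tag number had 1.77 tags per window in replicate 1 and 0.302 in replicate 2, and the spike-in list had 1.48 and 0.263. A window entered an island from 4 tags in the replicate 1 lists of equal tag number, from 3 tags in the replicate 1 spike-in list, and from 2 tags in all replicate 2 lists. The replicate 1 spike-in list held 707 islands of at least 8 kb on fewer tags than the equal tag number list, which held 580. That lower minimum stands beside the spike-in values of replicate 1 below, and its part in them was not tested. The tag density of the H3K27me3 lists could not be fitted.

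The cell type label was read against marker genes. All 12 epithelial markers had their start inside an H3K4me3 island of DMSO replicate 1, and 7 of 12 inside a broad one. Of 14 markers of blood, endothelial, fibroblast, liver, neural and muscle cells, 1 (COL1A1, 3.6 kb) had its start inside an island and 0 inside a broad island. Over all protein-coding genes, 63.6% had their start inside an island of that list and 6% inside a broad one.

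Sequences of the islands are shown to let the inside and the edge of a broad island be compared. They come from 4 of the longest broad islands with a single protein-coding start, at PMEPA1, EPHA2, BCL9L and TINAGL1. The CpG-richest window is the 200-bp window of the island with most CpG dinucleotides outside annotated exons, and the downstream edge is the window outside exons that lies farthest along the direction of the gene. The sequences are from GRCh37 (hg19), are written 5′ to 3′ on the strand of the gene, and have each CpG in capitals. The windows of PMEPA1 lie on the minus strand at chr20:56284201-56284400 and chr20:56259001-56259200, both inside an intron of that gene. Those of EPHA2 lie on the minus strand at chr1:16482601-16482800, outside any coding gene, and at chr1:16461201-16461400 inside an intron. Those of BCL9L lie on the minus strand at chr11:118799001-118799200, inside an intron of the neighbouring gene UPK2, and at chr11:118777601-118777800 inside an intron of BCL9L. Those of TINAGL1 lie on the plus strand at chr1:32054601-32054800 and chr1:32057801-32058000, both outside any coding gene.
PMEPA1 CpG-richest window: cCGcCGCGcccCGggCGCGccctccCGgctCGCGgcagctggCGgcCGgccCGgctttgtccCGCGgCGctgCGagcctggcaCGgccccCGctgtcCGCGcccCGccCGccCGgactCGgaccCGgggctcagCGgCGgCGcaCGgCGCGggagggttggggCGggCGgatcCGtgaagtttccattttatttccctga
PMEPA1 downstream edge: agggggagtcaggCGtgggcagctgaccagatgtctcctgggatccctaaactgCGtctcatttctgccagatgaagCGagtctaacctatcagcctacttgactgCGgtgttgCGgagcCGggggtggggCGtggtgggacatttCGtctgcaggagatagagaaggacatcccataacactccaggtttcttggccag
EPHA2 CpG-richest window: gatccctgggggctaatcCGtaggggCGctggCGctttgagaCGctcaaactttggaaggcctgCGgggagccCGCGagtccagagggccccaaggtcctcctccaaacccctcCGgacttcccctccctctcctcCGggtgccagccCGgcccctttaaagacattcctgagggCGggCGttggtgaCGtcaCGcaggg
EPHA2 downstream edge: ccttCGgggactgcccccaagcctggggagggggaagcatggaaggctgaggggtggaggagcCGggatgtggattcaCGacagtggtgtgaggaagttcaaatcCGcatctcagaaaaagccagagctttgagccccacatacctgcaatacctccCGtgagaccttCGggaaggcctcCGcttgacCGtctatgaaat
BCL9L CpG-richest window: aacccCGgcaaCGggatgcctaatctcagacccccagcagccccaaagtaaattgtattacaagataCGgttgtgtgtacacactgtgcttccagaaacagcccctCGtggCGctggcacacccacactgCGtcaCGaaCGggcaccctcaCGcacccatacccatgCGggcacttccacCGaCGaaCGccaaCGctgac
BCL9L downstream edge: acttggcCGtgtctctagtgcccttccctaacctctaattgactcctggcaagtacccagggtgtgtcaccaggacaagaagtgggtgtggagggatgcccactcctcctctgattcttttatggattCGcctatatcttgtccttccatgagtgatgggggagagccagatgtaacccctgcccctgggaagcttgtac
TINAGL1 CpG-richest window: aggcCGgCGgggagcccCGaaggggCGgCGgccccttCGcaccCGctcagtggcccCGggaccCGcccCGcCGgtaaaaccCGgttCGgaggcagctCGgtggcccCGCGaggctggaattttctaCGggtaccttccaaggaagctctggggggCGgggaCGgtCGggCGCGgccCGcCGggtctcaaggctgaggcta
TINAGL1 downstream edge: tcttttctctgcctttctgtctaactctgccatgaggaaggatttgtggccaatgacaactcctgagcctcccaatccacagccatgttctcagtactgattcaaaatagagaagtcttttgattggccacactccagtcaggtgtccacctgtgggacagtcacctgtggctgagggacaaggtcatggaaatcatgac

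The CpG-richest windows were covered by H3K4me3 in all 4 lists of equal tag number and held 34 CpG dinucleotides at PMEPA1, 14 at EPHA2, 14 at BCL9L and 24 at TINAGL1. The edge windows held 8 at PMEPA1, 8 at EPHA2, 2 at BCL9L and 0 at TINAGL1. The edges of PMEPA1 and TINAGL1 were covered in both replicate 1 lists but in neither replicate 2 list. The edge of BCL9L was uncovered only in GSK126 replicate 2, and that of EPHA2 was covered in both DMSO lists and in neither GSK126 list.

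Most broad islands were only moderately longer than the threshold. Their median length was 9.6 kb (quartiles 8.6 and 11.4 kb, range 8 to 37.8 kb), against 3.2 kb over all islands of DMSO replicate 1. There were 574 islands of 8 to under 10 kb, 360 of 10 to under 15 kb, 65 of 15 to under 20 kb and 18 of 20 kb or more. The threshold cut through a continuous range, since 89 members were exactly 8 kb and 80 shared islands were 1 window shorter. GNB1, CRYBG2 and the shared LEPROT and LEPR start stood just inside at 8 kb, and HES4, DHRS3 and a region nearest NADK stood just outside at 7.8 kb. In DMSO replicate 2 the island just inside at GNB1 was covered over 57.5% of its length and the one just outside at HES4 over 66.7%.

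Broad islands more often held a gene start than shorter islands, but fewer starts for their length. They held 1193 protein-coding gene starts, 6% of all 19894 protein-coding genes, whereas 63.6% had their start in some island of DMSO replicate 1. Of the 1017, 175 held no coding start, 601 held 1, 166 held 2 and 75 held 3 or more, with at most 6. At least 1 coding start was present in 82.8%, against 68.8% of the 13864 shared islands of 2 to under 8 kb and 17.6% of the 1593 shorter than 2 kb. Starts on both strands were present in 16.7% of the broad islands and in 6.57% of those of 2 to under 8 kb. Longer windows hold more starts for their length alone, and per 10 kb the broad islands held 1.11 starts and the 2 to under 8 kb islands 1.88. Of the 175 without a coding start, 122 held no long noncoding RNA start either.

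The mark lay mostly downstream of the start. In the 601 islands with a single coding start, DMSO replicate 1 covered a median of 3.35 kb upstream and 6.14 kb downstream, and the downstream arm was the longer in 464 (77.2%). In DMSO replicate 2, the island over the start reached a median of 1.45 kb upstream and 2.92 kb downstream, and the downstream arm was the longer in 83.4% of the 595 islands that had one. With GSK126 the arms were 1.38 kb and 2.73 kb in replicate 2, and 2.64 kb and 4.86 kb in replicate 1, at equal tag number. The position over the start itself was covered in 99% of the islands in both replicate 2 lists. At 4 kb downstream the share was 86.5% in DMSO replicate 1, 70.9% in GSK126 replicate 1, 34.6% in DMSO replicate 2 and 28.0% in GSK126 replicate 2. The curves of the replicates thus stood further apart than those of the treatments.

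**Figure D1:**
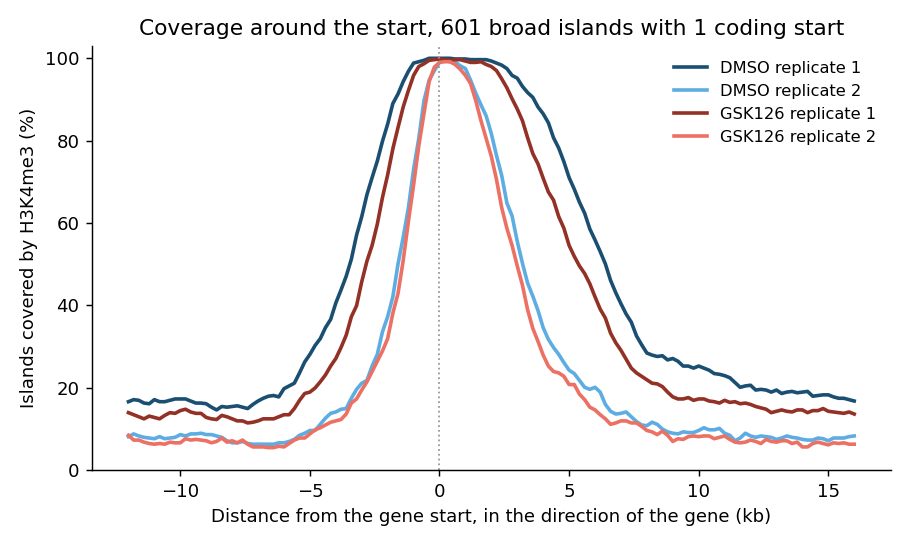
Share of the 601 broad islands with 1 coding start covered by H3K4me3 (y axis, percent) against distance from that start in the direction of the gene (x axis, kb) in the 4 lists of equal tag number. All 4 curves reach 99% or more at the start, the arms extend further downstream than upstream, and the replicate 2 curves lie inside the replicate 1 curves.

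The longest broad island covered PMEPA1, a membrane protein induced by TGF-beta that restrains TGF-beta signalling. It spanned 37.8 kb at chr20:56259001-56296800. Islands covered 65.6% of it in DMSO replicate 2, 69.3% in GSK126 replicate 2 and 95.8% in GSK126 replicate 1. The longest single island within it was 8.6 kb in DMSO replicate 2 and 11.6 kb in GSK126 replicate 2. PMEPA1 and BCL9L were the members of the 15 longest that were covered over more of their length with GSK126 in replicate 2.

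PLEC, which encodes the cytoskeletal linker plectin, had an island of 31.8 kb that was covered over 84.3% in DMSO replicate 2, 83.0% in GSK126 replicate 2 and 96.9% in GSK126 replicate 1. EPHA2, a receptor tyrosine kinase, had an island of 25.2 kb that went from 88.1% in DMSO replicate 2 to 67.5% in GSK126 replicate 2, with 96.0% in GSK126 replicate 1. Its longest island was 16.8 kb in DMSO replicate 2 and 6.6 kb in GSK126 replicate 2, whereas in GSK126 replicate 1 it was 22.8 kb. BCL9L, a co-activator of beta-catenin, had an island of 25 kb covered over 88%, 92% and 96.8% in the same order. ITGA3, the integrin alpha 3 chain of the laminin receptor, had 22.4 kb covered over 60.7%, 54.5% and 92.0%.

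Several of the longest islands joined neighbouring genes, and 7 of the 15 longest held 2 or more coding starts. The island of 28.2 kb over CKB, the brain-type creatine kinase, and TRMT61A, a subunit of a tRNA methyltransferase, was covered over 56.0% in DMSO replicate 2, 29.8% in GSK126 replicate 2 and 87.2% in GSK126 replicate 1. The island of 21.6 kb over RHOF and SETD1B, the latter encoding an H3K4 methyltransferase, was covered over 81.5%, 79.6% and 95.4%. The island of 21.2 kb over FIBP, CCDC85B and FOSL1, the last an AP-1 subunit, was covered over 68.9%, 61.3% and 87.7%. The other multi-gene islands held ZFTRAF1 with neighbours (25.4 kb), TBL3, NOXO1, GFER and SYNGR3 (24.6 kb), ANAPC2 with neighbours (24.4 kb), and CIRBP and FAM174C (23.2 kb). TINAGL1 (24 kb), EID3 (23.4 kb) and SSH3 (21.6 kb) complete the list of 15, and SSH3, a cofilin phosphatase, went from 58.3% in DMSO replicate 2 to 31.5% in GSK126 replicate 2, with 69.4% in GSK126 replicate 1. In replicate 2 the covered share was lower with GSK126 in 12 of the 15, equal in 1 and higher in 2. Over all 1017 members it was lower in 650, equal in 72 and higher in 295.

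**Figure D2:**
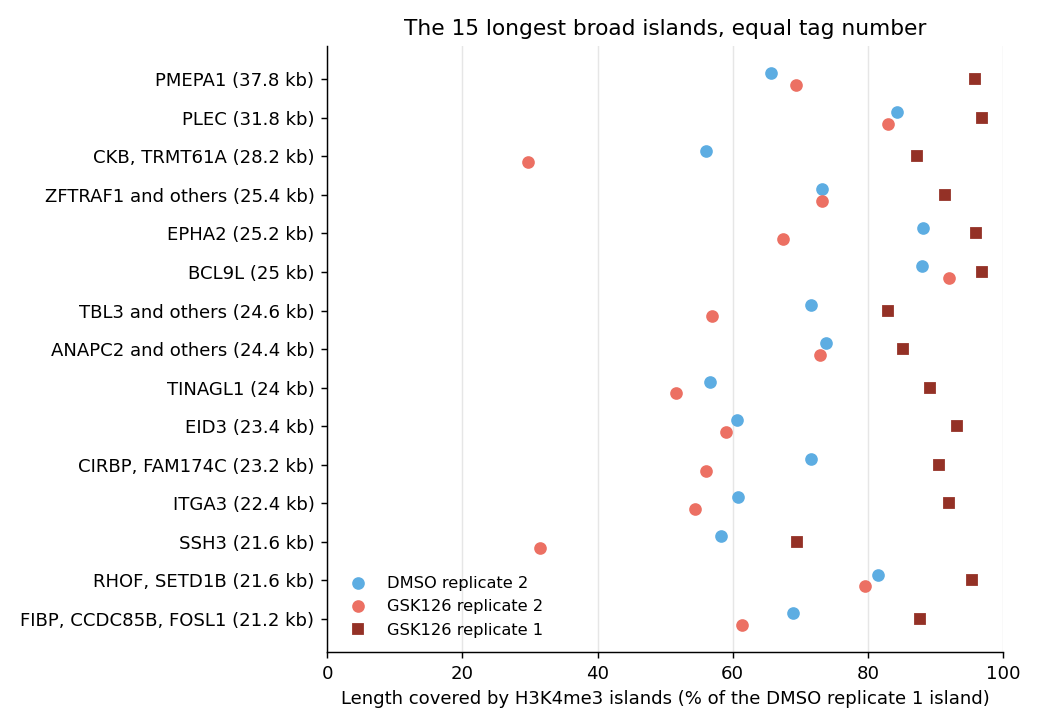
Length covered by H3K4me3 islands in the 15 longest broad islands, as a percentage of the island in DMSO replicate 1 (x axis), for DMSO replicate 2, GSK126 replicate 2 and GSK126 replicate 1 at equal tag number. The GSK126 replicate 1 values lie at 69.4% or more, and the widest gaps within replicate 2 are at SSH3, from 58.3% to 31.5%, and at CKB and TRMT61A, from 56.0% to 29.8%.

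With GSK126 the broad islands were covered over slightly less of their length. At equal tag number the covered share of all 1017 together went from 59.0% to 54.0% in replicate 2, a log2 ratio of −0.13. In replicate 1, where the share with DMSO is 100% by the choice of islands and cannot rise, it was 85.9% with GSK126, a log2 ratio of −0.22. With the spike-in lists the log2 ratio was −0.20 in replicate 2, where 51.3% was covered with GSK126, and −0.18 in replicate 1.

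Island by island, the direction was mixed. In replicate 2 at equal tag number, 650 broad islands were covered over less of their length with GSK126, 72 over the same and 295 over more, with a median change of −4.41 percentage points (quartiles −11.7 and 2.17). The share was lower by at least 10 points in 303 (29.8%), against a background of 34.1% of all 16474 shared islands, and higher by at least 10 points in 79 (7.77%), against 16%. The spike-in list of replicate 2 gave 393 lower (38.6%) against a background of 40.1%, and 49 higher (4.82%) against 11.7%. A single 200-bp window makes up at least 10 points of an island of 2 kb or less, and fewer points of a longer one. These shares therefore depend on island length, and the differences from the background are no result about the broad islands. In replicate 1, the rule's own list, 586 were lower by at least 10 points (57.6%) and the background was 58.4%. A drop of this size was seen in both replicates in 178, which was 30.4% of those in replicate 1 and 58.7% of those in replicate 2. Over all members, 29.8% dropped in replicate 2 and 57.6% in replicate 1. The overlap therefore shows little agreement between the replicates beyond these shares. Across islands the changes of the 2 replicates had a Spearman correlation of 0.04 and a Pearson correlation of 0.03 (n = 1017 islands, which share libraries and are not replicates).

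**Figure D3:**
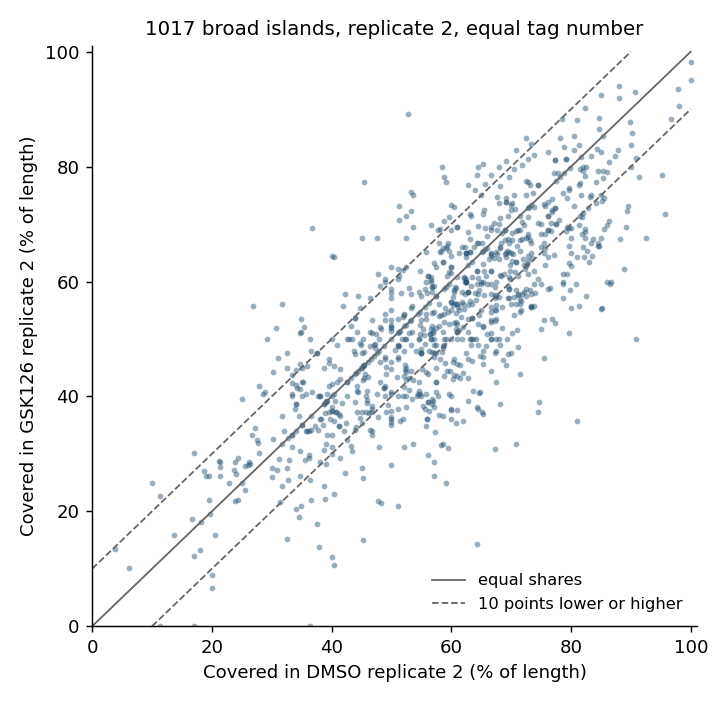
Length covered in GSK126 replicate 2 (y axis) against DMSO replicate 2 (x axis), as a percentage of each broad island, at equal tag number, with 1 point per island (n = 1017). More points lie under the line of equal shares (650) than above it (295), and 303 lie at or beyond 10 points under it.

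The change was close to that of islands of ordinary length. The shared islands of 2 to under 8 kb had a log2 ratio of covered length of −0.12 in replicate 2 and −0.25 in replicate 1 at equal tag number. The broad islands differed from them by −0.010 in replicate 2 and by 0.028 in replicate 1, so the direction was not the same in the replicates. The shared islands under 2 kb had −0.52 in replicate 2 and −0.33 in replicate 1, and the broad islands stood above them by 0.39 and 0.11. Islands were kept only where DMSO replicate 2 also had one, which left 1593 of 5734 under 2 kb, 13864 of 17119 of 2 to under 8 kb and 1017 of 1022 broad islands. This filter on DMSO favours a loss with GSK126, most in the shortest class, so the difference from that class is no result about the broad islands. Over the whole lists the log2 ratio was −0.10 in replicate 2. The summed score of islands overlapping the broad ones, which depends on tag number as well as length, had a log2 ratio of −0.19 in replicate 2 and −0.04 in replicate 1.

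Few broad islands overlapped an island of 8 kb or more in the shallower replicate under either treatment. Such an island, which need not cover the whole member, overlapped 71 of the 1017 in DMSO replicate 2 (6.98%), 54 in GSK126 replicate 2 (5.31%) and 522 in GSK126 replicate 1 (51.3%), at equal tag number. The tag density moved with these counts, and its part in them was not tested. Both replicate 2 lists had such an island at 37 members, DMSO alone at 34 and GSK126 alone at 17. The same number, 37, had one in all 4 lists of equal tag number. Among these 37 the longest were PMEPA1, PLEC, the ZFTRAF1 cluster, BCL9L, TINAGL1, ITGA3, RHOF with SETD1B, TNFAIP2, the MFSD3, RECQL4 and LRRC14 cluster, and the FKBP2, PPP1R14B and PLCB3 cluster. The MFSD3 cluster, which includes the DNA helicase gene RECQL4, spanned 21.2 kb and was covered over 98.1% in DMSO replicate 2, 90.6% in GSK126 replicate 2 and 100% in GSK126 replicate 1.

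When GSK126 replicate 1 was used to choose islands instead, 579 of 8 kb or more were shared with GSK126 replicate 2, and 523 of them (90.3%) overlapped a broad island of DMSO. They were covered over 68.4% in DMSO replicate 2 and 63.4% in GSK126 replicate 2. The lower share with GSK126 in replicate 2 was thus present also where GSK126 made the choice.

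The members with the largest changes in replicate 2 were chosen for that change and are given as a description. The largest losses were at a region of chromosome 20 nearest WFDC3 (64.3% to 14.3%), at RHOT2 (81.0% to 35.7%), at MEAK7 (90.9% to 50%), at the phosphodiesterase gene PDE4A (70.7% to 31.7%) and at PAXX, a factor of DNA end joining, with CLIC3 (74.4% to 37.2%). The same members were covered over 69.0% to 93.2% in GSK126 replicate 1. The largest gains were at a region nearest ZNF33B (52.7% to 89.1%), at the phosphatidate phosphatase gene LPIN1 (36.7% to 69.4%), at a region nearest EXOC3L4 (45.5% to 77.3%), at DLST, a subunit of the 2-oxoglutarate dehydrogenase complex (26.9% to 55.8%), and at TGFB1I1, a focal adhesion protein also called HIC-5 (40% to 64.4%). The region nearest ZNF33B began 0.065 kb from an assembly gap on chromosome 10, and the part of this position in its value was not tested.

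Some genes of the epithelial and lung lineage lists had broad islands and others did not. All lists of genes named here were chosen with earlier results of these data known, so that their counts are descriptions. Of 20 lung lineage genes, 6 had their start in a broad island, all of them transcription factor genes. FOXA1, a pioneer factor of endodermal organs, had an island of 14 kb covered over 81.4% in DMSO replicate 2, 71.4% in GSK126 replicate 2 and 100% in GSK126 replicate 1. ELF3, an epithelial ETS factor, had 15 kb covered over 69.3%, 65.3% and 85.3%. GATA6 (8.6 kb), EHF (8.8 kb), KLF5 (8.6 kb) and GRHL2 (9.2 kb) were the others. NKX2-1, the lineage factor of the distal lung, had an ordinary island of 3.8 kb. Of the 20 lung lineage genes, 15 had their start in an island of DMSO replicate 1. SFTPB, SFTPC, NAPSA, SCGB1A1 and TP63 had no island, and those of FOXA2 (1.4 kb) and HOPX (1 kb) were short. Among the epithelial markers, the laminin receptor chain ITGA6 had an island of 19.2 kb covered over 64.6% in DMSO replicate 2, 40.6% in GSK126 replicate 2 and 97.9% in GSK126 replicate 1, and the keratin genes KRT7, KRT8, KRT18 and KRT19 had islands of 10.8 to 14.4 kb.

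The EGFR and ERK pathway, which carries growth factor signals from the cell surface to the nucleus, was present in part, with broad and shorter islands at each level. Broad islands held the start of 12 of 24 listed genes, against the 6% of all protein-coding genes given above, or 9.42% of those with a start in any island. At the receptor level, EGFR had an island of 10.8 kb and ERBB2 one of 9.4 kb, and the ligand gene HBEGF had 9.6 kb. The feedback inhibitors DUSP4 (14.6 kb), DUSP5 (11 kb), DUSP6 (10.4 kb), SPRY4 (9.2 kb) and SPRED2 (9.8 kb) and the targets FOSL1, PHLDA1 (10 kb), MYC (11.6 kb) and CCND1 (14.4 kb) completed the 12. Among the listed genes that were not broad were ERBB3 and MET (4.6 kb each), EREG (4.4 kb), SPRY1 (7.6 kb) and SPRY2 (7.2 kb). ETV4 and MCL1 (6.4 kb each) were not broad either, and AREG had no island. EGFR was covered over 50% in DMSO replicate 2 and 51.9% in GSK126 replicate 2. DUSP4, a phosphatase of ERK, was covered over 86.3% and 80.8%. CCND1, the cell cycle regulator cyclin D1, was covered over 65.3% in both. In replicate 2 the share was lower with GSK126 in 10 of the 12, equal in 1 and higher in 1, against 650 lower among all 1017 members. The median change was −5.62 points against −4.41 over all members.

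The AP-1 and immediate early list had 5 of 12 genes in broad islands, namely JUNB (16.6 kb), FOSL2 (13.6 kb), JUN (8.6 kb), IER2 (8.6 kb) and KLF6 (8.6 kb). JUNB was covered over 83.1% in DMSO replicate 2 and 74.7% in GSK126 replicate 2. Of the YAP and TEAD list, the co-activator WWTR1 (8.2 kb) and the targets CCN1 (9.2 kb) and AMOTL2 (9 kb) were broad, 3 of 12 genes. AMOTL2 went from 75.6% to 46.7% in replicate 2, CCN1 from 63.0% to 71.7%, and WWTR1 from 43.9% to 53.7%. The 3 genes therefore did not share a direction.

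Of 12 TGF-beta and BMP genes, 5 were broad, and in 3 of these the covered share in replicate 2 was higher with GSK126, against 295 of all 1017 members. The ligand gene TGFB2 (9 kb) went from 31.1% to 46.7%, and the inhibitors SKIL (10 kb) and SMAD7 (20 kb) went from 34% to 42% and from 32% to 34%. The repressor TGIF1 (9.6 kb) went from 77.1% to 64.6%. In GSK126 replicate 1 these islands were covered over 76% to 95.8%. SMAD7 was thus the longest of the group in DMSO replicate 1 while it was covered over about the same share as SKIL and TGFB2 in DMSO replicate 2.

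Housekeeping genes had the highest share of the lists, with 8 of 12 in broad islands (ACTB, GAPDH, TUBB, EEF1A1, ENO1, HSP90AB1, PPIA and RPLP0). GAPDH had an island of 12.2 kb covered over 70.5% in DMSO replicate 2 and 57.4% in GSK126 replicate 2. PPIA, the cyclophilin A gene, had 8 kb covered over 45% and 67.5%. Genes of the H3K4 methylation enzymes were broad in 4 of 14, namely the methyltransferases SETD1B and KMT2B (8.4 kb), the CpG-binding subunit CXXC1 (10.6 kb) and the demethylase KDM5B (8.6 kb). Of the 7 PRC2 genes, JARID2, an accessory subunit, had a broad island (9 kb), while EZH2, the target of GSK126, had an island of 4.2 kb.

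HOX and mesenchymal genes had no broad island. No broad island held the start of any of 39 HOX genes, although 11 of them lay in an island of DMSO replicate 1. The same held for 9 mesenchymal genes, of which 7 lay in an island, among them VIM (3.4 kb) and TGFBI (6.6 kb). The background was 6% of all protein-coding genes, or 9.42% of those with a start in any island. At such shares, 0 in lists this short is no result about these genes. Of 13 developmental targets of PRC2, PAX6 (8 kb) and SIX2 (12 kb) were broad. SIX2 was covered by H3K4me3 over 50% in DMSO replicate 2 and 53.3% in GSK126 replicate 2, and by H3K27me3 over 38.3% in DMSO replicate 1 and 36.7% in DMSO replicate 2. Over all lists, 53 genes had broad islands, each island belonging to 1 listed gene. In replicate 2 the share was lower in 33 of these, equal in 4 and higher in 16, against 650, 72 and 295 of all 1017 members.

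**Figure D4:**
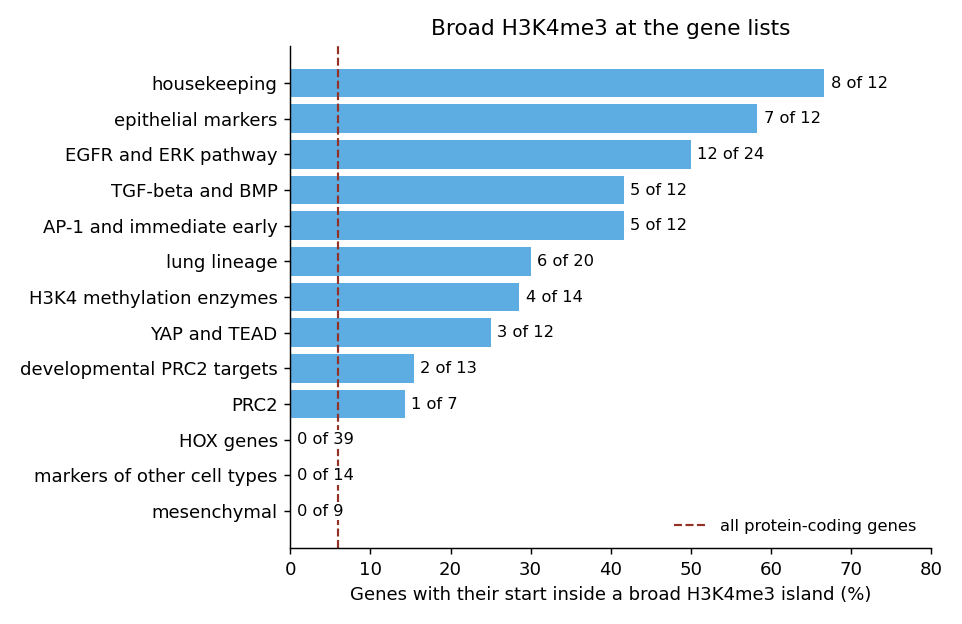
Share of the genes of each list with their start inside a broad H3K4me3 island (x axis, percent), with the number of genes beside each bar and the value of all protein-coding genes (6%) as a dashed line. Housekeeping genes (8 of 12), epithelial markers (7 of 12) and the EGFR and ERK pathway (12 of 24) lead, and the HOX genes, mesenchymal genes and markers of other cell types are at 0.

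H3K27me3 overlapped about the same share of the broad islands as of all shared islands. In both DMSO replicates an H3K27me3 island overlapped 111 of the 1017 (10.9%) at equal tag number, against a background of 10.6% of all shared islands. The share was 9.67% in islands of 2 to under 8 kb and 19.0% in those under 2 kb. At least 50% of the length lay under H3K27me3 in both DMSO replicates for 35 (3.44%), against 6.90% of the islands of 2 to under 8 kb and 17.5% of those under 2 kb. Both measures depend on length, since a longer island is more easily touched and less easily covered over 50%. Of their summed length, H3K27me3 covered 6.61% in DMSO replicate 1 and 5.19% in DMSO replicate 2. For the islands of 2 to under 8 kb these values were 7.45% and 6.52%. With GSK126 at equal tag number, 81 broad islands (7.96%) were overlapped in both replicates, against 8.12% of all shared islands. Of the 111, 79 (71.2%) stayed overlapped in both and 15 were overlapped in neither. Over all shared islands these counts were 1277 (72.8%) and 227 of 1753, so the kept share was near that background. No broad island was overlapped in both GSK126 lists and in neither DMSO list, against 19 of all 16474 shared islands. With the spike-in lists 127 (12.5%) were overlapped in both DMSO replicates and 46 of them (36.2%) in both GSK126 replicates. Over all shared islands these counts were 1974 (11.98%) and 864 (43.77%). With these lists the overlapped share of the broad islands was thus near the background and the kept share below it.

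The length covered by H3K27me3 inside broad islands fell more than that inside islands of 2 to under 8 kb, while the score at equal tag number did not fall. At equal tag number the log2 ratio was −0.61 in replicate 1 and −0.49 in replicate 2, and the difference from the islands of 2 to under 8 kb was −0.26 and −0.10. With the spike-in lists the ratios were −1.53 and −1.46 and the differences −0.47 and −0.37. Both replicates thus had the same direction of covered length with each kind of list. The mean difference was −0.18 ± 0.12 at equal tag number and −0.42 ± 0.07 with the spike-in lists (SD, n = 2). Over the whole H3K27me3 lists the ratios were −0.21 and −0.45 at equal tag number, and −1.11 and −1.18 with the spike-in. At equal tag number the covered share was the same under both treatments at 891 of the 1017 members in replicate 1 and at 897 in replicate 2. The summed score of the H3K27me3 islands that overlapped the broad islands, which extend beyond them, had a log2 ratio of 0.57 in replicate 1 and 0.54 in replicate 2 at equal tag number. For the islands of 2 to under 8 kb it was 0.34 and 0.75, so the score gave no common direction for the difference between the classes.

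The island over CKB and TRMT61A held the greatest length of H3K27me3 in both DMSO replicates, though not the greatest share. H3K27me3 covered 81.6% in DMSO replicate 1 and 56.0% in DMSO replicate 2, and 24.1% and 26.95% with GSK126, at equal tag number. At EPHB3, an Eph receptor, it covered 85.7% and 82.5% with DMSO and 60.3% and 68.3% with GSK126. At MMP17, a membrane-bound metalloproteinase, it covered 100% in both DMSO replicates and 100% and 58.2% with GSK126. ADGRB2, an adhesion G protein-coupled receptor, went from 100% in both to 62.7% and 90.2%. DGAT1, an enzyme of triglyceride synthesis, went from 80.6% and 72.2% to 34.7% and 16.7%. PDE4DIP and regions nearest KCNJ12, ZNF33B, FOXD4L5 and ANKRD30BL completed the top 10. At 6 members H3K27me3 covered over 90% in all 8 H3K27me3 lists, namely SAMD11, SMARCD3, GNAS-AS1, a further region nearest ZNF33B and the regions nearest ANKRD30BL and FOXD4L5, and 4 of these held no protein-coding start.

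The H3K4me3 change was similar with and without H3K27me3. The 111 members with H3K27me3 in both DMSO replicates were covered over 59.9% in DMSO replicate 2 and 53.4% in GSK126 replicate 2, a log2 ratio of −0.16. The 856 with it in neither were covered over 58.9% and 54.0%, a log2 ratio of −0.13. The 15 that had H3K27me3 in both DMSO and in neither GSK126 list had −0.13 in replicate 2 and −0.16 in replicate 1.

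CpG-rich windows of the broad islands were covered more often than their other windows in every list other than DMSO replicate 1, where the choice of islands sets all windows as covered. A window was counted as CpG-rich when its GC content was at least 50% and its ratio of observed to expected CpG at least 0.6. The median broad island had 8 such windows (1.6 kb), against 4 in islands of 2 to under 8 kb, but they made up 17.9% of all its windows against 22.2%. The median GC content was 54.7% against 51.5%, and the median observed to expected CpG ratio over the island was 0.43 against 0.52. At least 1 CpG-rich window was present in 937 (92.1%), against 86.4% of islands of 2 to under 8 kb and 84.4% of all shared islands. Longer islands hold more windows, so this share depends on length. Of the 80 broad islands without a CpG-rich window, 52 held no coding start, against 175 of all 1017.

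CpG-rich windows of the broad islands were covered in 90.3% in DMSO replicate 2 and in 88.6% in GSK126 replicate 2 at equal tag number (9607 windows), and the other windows in 52.2% and 46.4% (43962 windows). In GSK126 replicate 1 the shares were 96.2% and 83.7%. The islands of 2 to under 8 kb had the same order, with 90.8% and 89.4% of CpG-rich windows and 44.6% and 39.4% of other windows in DMSO and GSK126 replicate 2. The lower cover with GSK126 in replicate 2 thus lay mostly in windows that were not CpG-rich, in both length classes. Such windows were also the greater number, since 17.9% of windows in broad islands and 22.2% in the shorter class were CpG-rich. The gap in cover between the kinds of window went from 38.1 to 42.3 points in broad islands and from 46.3 to 50.0 in the shorter class. Of the downstream edges printed above, those of EPHA2 and BCL9L were lost with GSK126 in replicate 2. The edges of PMEPA1 and TINAGL1 were uncovered there with DMSO too.

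**Figure D5:**
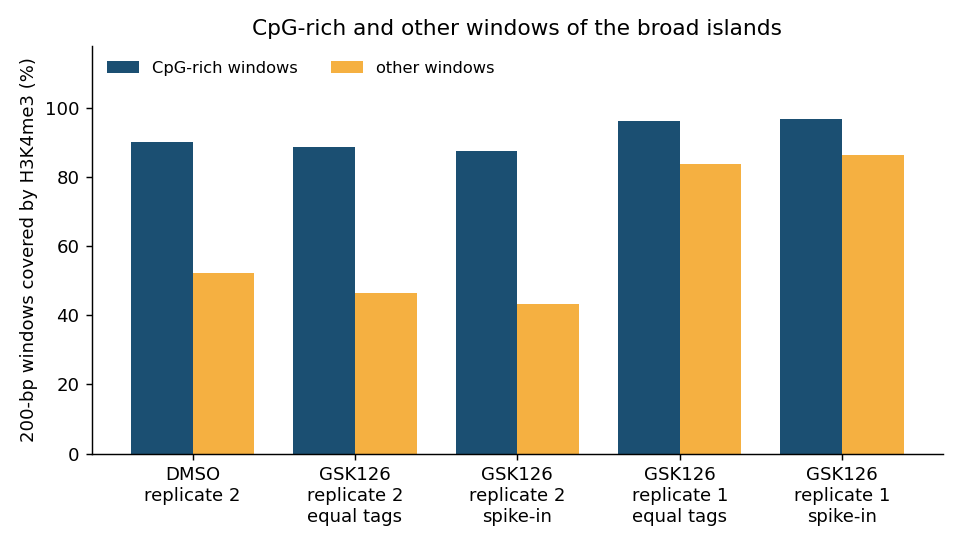
Share of 200-bp windows of the 1017 broad islands covered by H3K4me3 (y axis, percent) in each list, for CpG-rich windows and for the other windows. CpG-rich windows stay between 87.6% and 96.8%, while the other windows range from 43.4% to 86.3%.

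The motif TGANTCA, bound by AP-1, was present on either strand in 5.50% of the windows of broad islands and 5.31% of those of 2 to under 8 kb, and GGAATG, bound by TEAD factors, in 10.6% and 10.3%. These matches describe letters in the sequence and not binding.

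Islands without a coding start were less well covered in the second replicate. The 175 without one were covered over 49.6% in DMSO replicate 2 and 44.7% in GSK126 replicate 2, and the 842 with one over 60.9% and 55.8%. The log2 ratios were −0.15 and −0.13. The 75 islands with 3 or more coding starts, which are part of the 842, were covered over 68.8% and 61.6%. They were also longer, with a median of 13.2 kb against 9.6 kb in the 842. The order of these 3 overlapping groups was the same in GSK126 replicate 1, with 83.2% without a start, 86.5% with one and 89.3% with 3 or more.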

How the data were processed

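The deposited files were 14 island lists from 8 ChIP-seq libraries of PC9 cells. The authors aligned 50-nt tags to hg19 with BWA, removed duplicates, kept mapping quality over 25, removed tags at random to an equal number or by the spike-in factor, and called islands for each library with SICER 1.1 (random background, E-value 1, 200-bp windows, gaps of 200 bp for H3K4me3 and 600 bp for H3K27me3). The submitters' notes also name SAMtools 0.1.18. The deposited value is a SICER score per island, the sum over windows of the negative log Poisson probability of the tag count, so it depends on depth. Tag numbers were not in the lists, and the tag density and window minimum of the H3K4me3 lists were fitted from the scores with SciPy 1.17.1.

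Coverage was computed in Python 3.11.15 with NumPy 2.4.6 and pysam 0.24.0, the share of each member covered by islands being its measure, and ratios were formed within a replicate. Interval arithmetic and the density fit were tested on simulated data. Treatment and mark came from the sample labels. The labels give no replicate number. Replicates were numbered in accession order and paired by the library names in the study's supplementary material. The fitted tag density of the H3K4me3 lists of equal tag number was the same within a pair, and for H3K27me3 it was not fitted. Gene starts were those of GENCODE 44 mapped to GRCh37. Members, gene lists and named members (the 15 longest, the 5 largest losses and gains, the 10 with most H3K27me3, the 3 on each side of 8 kb, and listed genes) were chosen with earlier results of these data known. The values of 1 listed gene are not reported here. KARPAS-422 data were not analysed here.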

Additional observations from a re-analysis of the deposited data

How the results depend on the processing

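The lists give no tag counts, there were 2 replicates with a 5.86-fold gap in tag density, and the choice of islands used DMSO replicate 1. Sizes of change under about 1 SD of the replicates could therefore not be told apart. That SD rests on 2 unlike values and is no measure of noise, so a change above it is not thereby established. For the log2 ratio of H3K4me3 covered length, leaving out 1 replicate gave −0.22 to −0.13 at equal tag number and −0.20 to −0.18 with the spike-in lists, where the replicate 1 value cannot be above 0 by the choice of islands. The spike-in value was −0.22 with the stricter score (at least 2 times the lowest of a list), −0.22 with at least 50% of the member covered in DMSO replicate 2 and −0.18 with islands chosen by GSK126. Without pairing by replicate (no replicate block) the ratio of means was −0.18 and −0.19, and the score ratio was −0.072 in place of −0.19, while leaving out a replicate gave −0.19 to −0.043.

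The difference between broad islands and those of 2 to under 8 kb changed sign. It was 0.023 with at least 50% covered, 0.015 without the replicate block, −0.010 to 0.028 with 1 replicate left out, and −0.045 with islands chosen by GSK126. The number of members overlapped by an island of at least the threshold length in GSK126 replicate 2 was 211 with a threshold of 6 kb, 15 with 10 kb, 288 as the mean of both replicates without the replicate block, and 54 to 522 with 1 replicate left out. There were 2759 members at 6 kb, 443 at 10 kb and 579 when chosen by GSK126.

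The share with H3K27me3 in DMSO was 8.48% at 6 kb, 11.7% at 10 kb and 8.73% with the stricter score. It was 9.50% with islands chosen by GSK126, 12.5% with the spike-in lists, and 13.0% to 13.8% with 1 replicate left out. In the setting with at least 50% covered, H3K27me3 also had to cover at least 50% of the member, and the share was 3.57%. That is another measure than the overlap of 10.9%, and its counterpart over all members is 3.44%. Leaving out the 6 members under H3K27me3 in all 8 lists, an alternative chosen after seeing the data, moved no result by more than the spread between replicates, and neither did autosomes only.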

Other observations

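Broad islands were unevenly placed along the genome. They made up 10.5% of the shared islands of chromosome 22 and 10.4% of those of chromosome 11, but 1.27% of those of chromosome 4 and 1.798% of those of chromosome X. The megabases with most of them, picked after their values were seen, were chr11:65000001-66000000 with 12 of 38 shared islands, chr8:145000001-146000000 with 12 of 28, and chr11:67000001-68000000 with 11 of 33.

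The megabase with most members that lacked a coding start, also picked after its values were seen, was chr1:94000001-95000000. It held 8 broad islands among 20 shared islands, and 6 of them had no coding start. The start of BCAR3, an adaptor protein, lay in an island of 12.4 kb, and 5 islands of 8.8 to 11.8 kb lay nearest that gene. None of these 5 held a CpG-rich window, and no H3K27me3 island covered them in any list. They were covered over 3.85% to 40.7% in DMSO replicate 2, 10.6% to 37.3% in GSK126 replicate 2 and 43.5% to 88.6% in GSK126 replicate 1. ARHGAP29 had an island of 10.2 kb, with a neighbour of 11 kb at the antisense gene ARHGAP29-AS1, and in replicate 2 both were covered over the same share with DMSO and with GSK126 (33.3% and 32.7%).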
